A study of Homo sapiens with 15 samples.

Results

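The classical cadherins and the transcription factors that govern the epithelial and mesenchymal states were followed in SW480, an established line from a human colorectal tumour whose cells the labels call intestinal epithelial. The set holds 8 of the 57905 genes listed, chosen by symbol: the cadherins CDH1 (E-cadherin), CDH2 (N-cadherin) and CDH3 (P-cadherin), the intermediate filament protein VIM (vimentin), and the zinc finger repressors ZEB1, ZEB2, SNAI1 (Snail) and SNAI2 (Slug). Of these, 6 reached the low-value filter of at least 0.5 FPKM in at least 3 libraries, while CDH2 and ZEB2 did not and were not tested. SNAI2 reached it only through the libraries labelled with the hairpin and 1 LPS library.

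Messenger RNA was sequenced from 4 groups of 3 libraries. Control cells were wild-type and exposed to PBS for 4 h. LPS cells were wild-type and exposed to lipopolysaccharide, the endotoxin of Gram-negative bacteria, at 1 µg/ml for 4 h. PINT shRNA1 cells stably carried a lentiviral vector encoding a short hairpin RNA against PINT, a long non-coding RNA. They were listed without LPS at a time of 4 h. PINT shRNA1 with LPS cells carried the same vector and were exposed to LPS at the same dose and time as the LPS cells. The groups used here include no non-targeting hairpin, so the hairpin itself, the vector, the selection of a stable line and a PINT-specific effect cannot be told apart. The targeted gene, listed as LINC-PINT, went against the label. Its level was 2.88, 2.56 and 2.51 FPKM in control libraries and 4.55, 5.26 and 5.34 FPKM in those labelled PINT shRNA1 (log2 change 0.81, SE 0.118, limma adjusted p = 0.000592), and it was also higher with LPS (0.61, SE 0.118, limma adjusted p = 0.00284). The group names below are therefore those of the labels only. Nothing in the labels states that replicates came from separate cultures, and the p-values therefore cover the variation among the libraries, which may be technical.

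E-cadherin and P-cadherin are calcium-dependent adhesion proteins of adherens junctions, held to the actin cytoskeleton through catenins. In epithelial-mesenchymal transition, ZEB and SNAI factors bind E-box elements of the sequence CACCTG in promoters of CDH1 and other epithelial genes and repress them, and cells typically gain vimentin and N-cadherin. ZEB1 is also held down by the miR-200 family, and NF-kB signalling, which LPS activates through TLR4, is known to feed into several of these regulators.

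Between the labelled hairpin groups and their counterparts without a hairpin, ZEB1 and VIM were higher and CDH3 was lower, both without and with LPS, while no change of CDH1, SNAI1 or SNAI2 passed the test. Without LPS, 3 of 6 tested members were called at an adjusted p under 0.05 (2 higher, 1 lower), where 27.3% of all 17214 genes tested were called (16.9% higher, 10.3% lower). With LPS, again 3 of 6 were called (2 higher, 1 lower), where 29.2% of all genes were called (17.7% higher, 11.6% lower). The split of all calls depended on scaling: 2913 higher and 1780 lower without LPS became 2232 and 2135 after median scaling and 2263 and 2204 after quantile normalization, and 3039 and 1994 with LPS became 2385 and 2549 after median scaling. The directions of ZEB1, VIM and CDH3 were the same under these scalings. With 6 genes, nothing further is read from the share of members called. The 2 hairpin comparisons share no library, but both come from 1 fit with a common estimate of the spread. Both hairpin groups also carried the same vector, so the comparisons are not independent of each other.

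**Figure D1:**
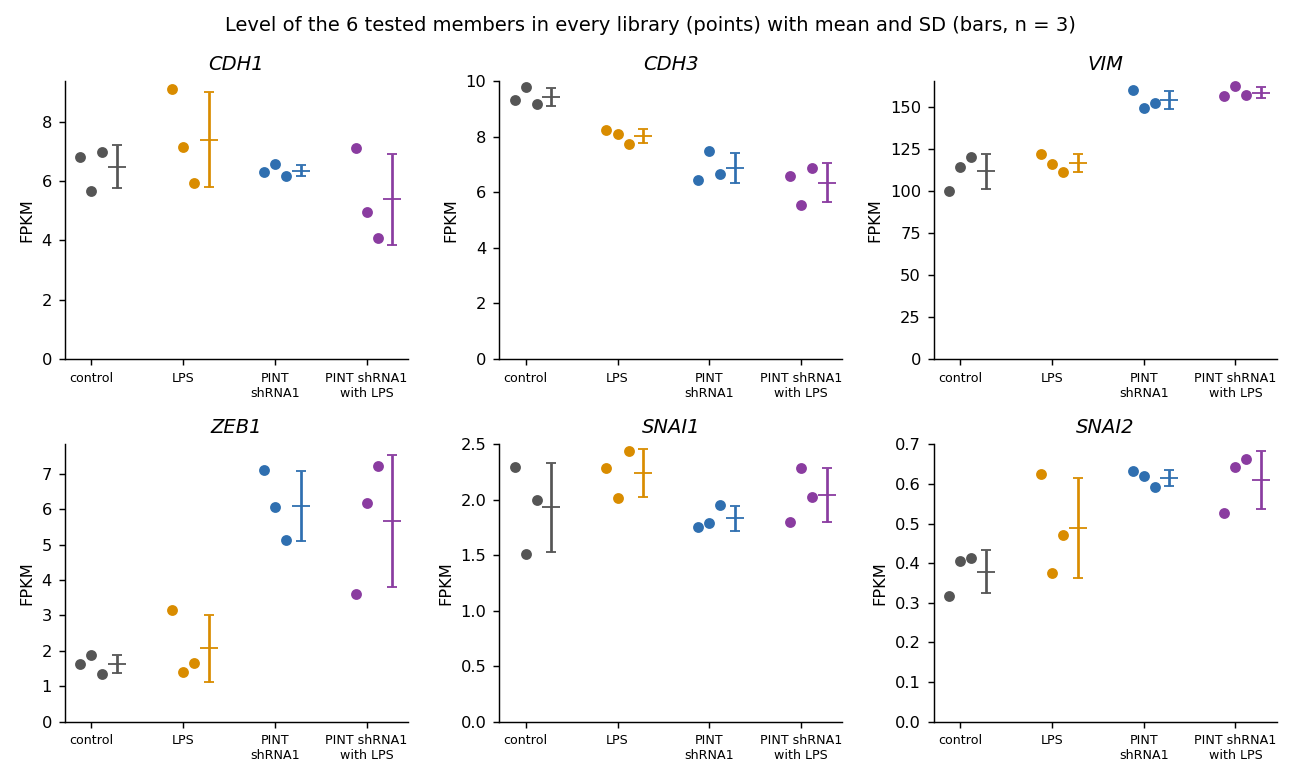
FPKM (vertical axis, from 0) of each of the 6 tested genes in every library of the 4 groups (points), with the mean and SD of 3 libraries (bars). ZEB1 and VIM lie higher, and CDH3 lower, in all 6 libraries labelled with the hairpin than in the 6 without, whereas CDH1 and SNAI1 overlap between groups.

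Of CDH1, CDH2 and CDH3, CDH3 had the highest mean level per length in each group and CDH2 was close to absent. CDH3 (ENSG00000062038), the adhesion protein of basal epithelia that is also found in colorectal tumours, measured 9.32, 9.79 and 9.19 FPKM in control, 8.23, 8.11 and 7.73 with LPS, 6.45, 7.47 and 6.65 in PINT shRNA1, and 6.58, 5.54 and 6.89 in PINT shRNA1 with LPS. Neither hairpin group overlapped its counterpart. The log2 change, on the log2(FPKM + 0.5) scale used throughout, was -0.435 without LPS (SE 0.082, limma adjusted p = 0.00294) and -0.32 with LPS (SE 0.082, limma adjusted p = 0.0132). Control libraries stood highest, LPS libraries next and the hairpin groups lowest, and among neighbours in this order only the 2 hairpin groups overlapped. The means fell from 9.43 ± 0.315 to 6.86 ± 0.537 FPKM and from 8.02 ± 0.263 to 6.34 ± 0.705 FPKM (SD, n = 3).

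CDH1 (ENSG00000039068), the cadherin of mature epithelium and the best known target of ZEB and SNAI repression, measured 6.8, 5.65 and 6.98 FPKM in control and 6.32, 6.56 and 6.17 in PINT shRNA1. These groups overlapped, and the log2 change was -0.022 with a 95% interval from -0.42 to 0.38, so a moderate change in either direction lies within the interval. With LPS it measured 9.11, 7.15 and 5.93 FPKM without the hairpin label and 7.11, 4.96 and 4.09 with it, which again overlapped. That log2 change was -0.44 (SE 0.182, 95% interval from -0.84 to -0.036) and missed the threshold (limma adjusted p = 0.0966). The call turned on single libraries: it was -0.64 with an adjusted p of 0.0173 without PINT shRNA1 with LPS replicate 1, and -0.58 with an adjusted p of 0.0496 without LPS replicate 3. CDH1 varied more within groups (SD 0.249 in log2) than 86.2% of genes at a level within 2-fold of its own.

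CDH1 and CDH3 are neighbours on chromosome 16, on the same strand and with 0 annotated genes between them in GENCODE 29. The ratio of CDH1 to CDH3 in FPKM was 0.577 to 0.76 in control libraries and 0.878 to 0.979 in PINT shRNA1 libraries, which did not overlap. It was 0.767 to 1.11 with LPS alone and 0.593 to 1.08 in PINT shRNA1 with LPS, which did. The 3 classical cadherins summed to 15.4 to 16.2 FPKM in control libraries and 13.7 to 17.3 FPKM in LPS libraries. The libraries labelled PINT shRNA1 reached 12.8 to 14 FPKM, and those labelled PINT shRNA1 with LPS 10.5 to 13.7 FPKM. CDH2 (ENSG00000170558), the cadherin typical of mesenchymal and neural cells, was listed at 0 in 7 of 12 libraries and reached at most 0.014 FPKM, so it contributed nothing measurable to the sum in any group.

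VIM (ENSG00000026025), which encodes the intermediate filament of mesenchymal cells, was already among the more abundant transcripts of control cells, above 97.5% of genes tested. It measured 100.4, 114.2 and 120.6 FPKM in control and 160.1, 149.6 and 152.9 in PINT shRNA1 (log2 change 0.47, SE 0.062, limma adjusted p = 0.000349). With LPS it measured 122.4, 116.4 and 111.4 FPKM without the hairpin label and 156.5, 162.6 and 157.4 with it (log2 change 0.44, SE 0.062, limma adjusted p = 0.000432). In both comparisons every library labelled with the hairpin lay above every one without it, while control and LPS overlapped, as did the 2 hairpin groups. Its antisense gene VIM-AS1 stood at 1.45 to 2.45 FPKM and was not called, and strand use in counting is not stated in the sources used here.

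ZEB1 (ENSG00000148516), the zinc finger repressor that recruits corepressors to E-boxes, showed the largest change of the tested members in both hairpin comparisons. It measured 1.63, 1.89 and 1.36 FPKM in control and 7.1, 6.07 and 5.13 in PINT shRNA1, a ratio of means of 3.75 and a log2 change of 1.63 (SE 0.269, limma adjusted p = 0.00133). With LPS it measured 3.16, 1.4 and 1.65 FPKM without the hairpin label and 3.6, 6.19 and 7.21 with it, a ratio of 2.74 and a log2 change of 1.27 (SE 0.269, limma adjusted p = 0.00502). The groups did not overlap, although the highest LPS library came close to the lowest PINT shRNA1 with LPS library. ZEB1 was also the most variable of the members within groups (SD 0.374 in log2, above 93.6% of genes at a level within 2-fold). In the 3 PINT shRNA1 with LPS libraries CDH1 was highest where ZEB1 was lowest, whereas in the 3 LPS libraries the highest CDH1 and the highest ZEB1 fell in the same library.

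ZEB1-AS1, which overlaps ZEB1 on the opposite strand, was listed at 2.21 to 3.43 FPKM and was not called in either comparison (log2 change -0.079 and 0.09). ZEB2 (ENSG00000169554), the paralogue that recognises the same element, was listed at 0 in 9 of 12 libraries and at no more than 0.0327 FPKM. Per library, the ratio of ZEB1 to CDH1 in FPKM was 0.195 to 0.335 in control and 0.196 to 0.346 with LPS. It was 0.831 to 1.12 for PINT shRNA1, and 0.507 to 1.76 once LPS was added to those cells. The ratio of VIM to CDH1 was 13.4 to 20.2 in the 6 libraries without the hairpin label and 22.0 to 38.5 in the 6 with it. Both ratios separated the labelled hairpin libraries from the rest without overlap, and the ratio of ZEB1 rests on the gene that changed and on CDH1, which was not called.

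The promoters of ZEB1 and VIM are shown because both transcripts rose and ZEB factors act through a defined DNA element. Windows of 300 bases (250 before to 50 after a start) come from RefSeq, build GRCh38.p14, which held windows for 4 of the 8 genes: ZEB1, VIM, CDH2 and ZEB2. Both genes lie on the plus strand of chromosome 10, and capitals mark CACCTG or its reverse complement CAGGTG. The first ZEB1 window is chr10:31318167-31318466, the third is chr10:31318966-31319265 and the VIM window is chr10:17227991-17228290.
ZEB1 window 1: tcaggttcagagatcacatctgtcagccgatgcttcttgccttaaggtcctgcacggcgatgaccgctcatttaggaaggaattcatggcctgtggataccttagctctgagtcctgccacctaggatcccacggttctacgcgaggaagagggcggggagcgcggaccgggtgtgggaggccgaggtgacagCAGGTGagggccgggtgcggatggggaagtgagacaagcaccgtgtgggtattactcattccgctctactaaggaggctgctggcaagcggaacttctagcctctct
ZEB1 window 3: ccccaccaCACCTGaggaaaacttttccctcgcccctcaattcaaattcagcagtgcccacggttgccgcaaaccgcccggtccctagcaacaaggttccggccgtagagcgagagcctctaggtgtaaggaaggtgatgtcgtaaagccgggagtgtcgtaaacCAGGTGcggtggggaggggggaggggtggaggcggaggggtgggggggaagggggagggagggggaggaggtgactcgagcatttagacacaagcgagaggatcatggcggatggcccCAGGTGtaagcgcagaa
VIM: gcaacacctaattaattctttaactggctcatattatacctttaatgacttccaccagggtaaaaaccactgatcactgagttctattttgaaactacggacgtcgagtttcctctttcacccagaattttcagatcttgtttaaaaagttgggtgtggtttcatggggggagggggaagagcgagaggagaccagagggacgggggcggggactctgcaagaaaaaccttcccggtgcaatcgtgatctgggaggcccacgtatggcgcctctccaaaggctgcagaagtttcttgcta
Of 7 ZEB1 windows, the first held 1 match, starting at -57 from the start, and the third held 3, at -242, -85 and 34. ZEB1 windows 2, 4, 5, 6 and 7 held 0 matches and are not shown. The VIM window held 0 matches. A match on either strand occurred in 20.6% of 35116 promoter windows of this length, and 2 or more in 3.49%. These shares are per single window. With 7 windows ZEB1 had more places for a match than VIM with 1, so the shares do not describe ZEB1 as a gene. These are matches of letters, and no binding was measured.

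SNAI1 (ENSG00000124216), the founding Snail repressor and a known inducer of ZEB1, gave no change that passed the test. It measured 2.29, 1.51 and 2.0 FPKM in control, 2.28, 2.01 and 2.44 with LPS, 1.75, 1.79 and 1.95 in PINT shRNA1 and 1.8, 2.28 and 2.02 in PINT shRNA1 with LPS. All 4 groups overlapped their neighbours, and the log2 changes were -0.051 (SE 0.127, limma adjusted p = 0.806) and -0.115 (SE 0.127, limma adjusted p = 0.543). The ratio of ZEB1 to SNAI1 moved from 0.676 to 1.39 in libraries without the hairpin label to 2.0 to 4.07 with it.

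SNAI2 (ENSG00000019549), the Snail family member linked to migration, stood near the low-value filter. SNAI2 reached the filter only through the libraries labelled with the hairpin and a single LPS library. Its entry into the test therefore favoured a rise with the hairpin label. It measured 0.318, 0.405 and 0.414 FPKM in control and 0.632, 0.621 and 0.592 in PINT shRNA1, which did not overlap, and the log2 change of 0.345 (SE 0.12) missed the threshold (limma adjusted p = 0.0548). It passed when libraries were rescaled to a common FPKM total (0.0475) or when the intensity trend was left out (0.0208), and the change was 0.58 with a pseudocount of 0.1. With LPS it measured 0.624, 0.374 and 0.47 FPKM without the hairpin label and 0.526, 0.642 and 0.662 with it, which overlapped (log2 change 0.17, limma adjusted p = 0.318).

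LPS itself called 0 of the 6 tested members in cells without the hairpin label, where 2.76% of all genes were called (271 higher and 204 lower, or 450 and 123 after median scaling and 299 and 128 after quantile normalization). In limma, 1 of them had an unadjusted p under 0.05. That was CDH3, whose groups did not overlap (log2 change -0.22, SE 0.082, limma adjusted p = 0.202). ZEB1 gave 0.22 and CDH1 gave 0.16, both within their spread, and without LPS replicate 1 the value of ZEB1 was -0.066. In the cells labelled PINT shRNA1, LPS called 0 of 6 members (0 at an unadjusted p under 0.05), where 0.186% of all genes were called. The difference between the 2 LPS responses was called for 0 of 6 (0 at an unadjusted p under 0.05), where 0.128% of all genes were called. For CDH1 this difference was -0.415 with a 95% interval from -0.98 to 0.15, which leaves room for a sizeable difference.

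**Figure D2:**
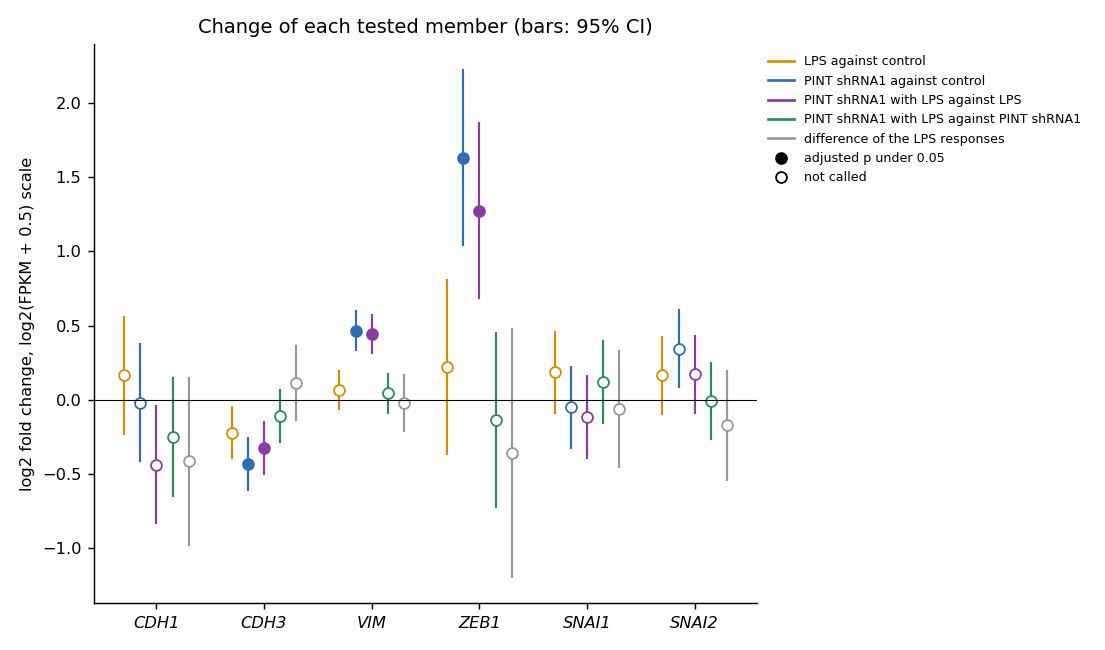
Log2 change on the log2(FPKM + 0.5) scale (vertical axis) of each tested gene in the 5 comparisons, with 95% confidence intervals from the limma fit. Filled points have an adjusted p under 0.05, and only ZEB1, VIM and CDH3 in the 2 hairpin comparisons are filled.

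Genes known to be repressed by ZEB and SNAI factors were called lower but not higher, as the plot of called genes by list shows. The list was chosen with earlier results of these data known. Whether ZEB1 or SNAI factors lowered these genes was not tested. Of 28 tested epithelial targets of the 30 listed, 0 were higher and 16 were lower in PINT shRNA1 against control (57.1% lower, against 10.3% of all genes tested, with a median log2 change of -0.29 against 0.057 over all genes). With LPS, 0 were higher and 17 lower (60.7% lower, against 11.6% of all genes, with a median of -0.35 against 0.053). The uncalled members included EVPL (0.47 and 0.29) and S100A14 (0.33 and 0.17), named after their values were seen. The calls shared by both comparisons numbered 14, which is 87.5% of the first set and 82.4% of the second. The matching shares over all genes were not computed, so nothing about this list is read from these shares. EPCAM, the epithelial adhesion molecule, fell from 203.4, 204.7 and 206.8 FPKM to 141.4, 144.7 and 143.2 FPKM (log2 change -0.52, SE 0.045, limma adjusted p = 2e-05). SPINT1, an inhibitor of membrane serine proteases, fell by 0.68 and 0.61 on the log2 scale, and DSP, the desmosomal plaque protein desmoplakin, fell by 0.4 and 0.36. The polarity gene CRB3, named after its values were seen, fell by 0.74 without LPS and by 0.5 with LPS, and the latter missed the threshold when any of 4 single libraries was left out: LPS replicate 1 or 2 (adjusted p = 0.0819 and 0.0827) or PINT shRNA1 with LPS replicate 1 or 2 (0.106 and 0.0831). CDH1 itself, the best known target, was not among those called.

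**Figure D3:**
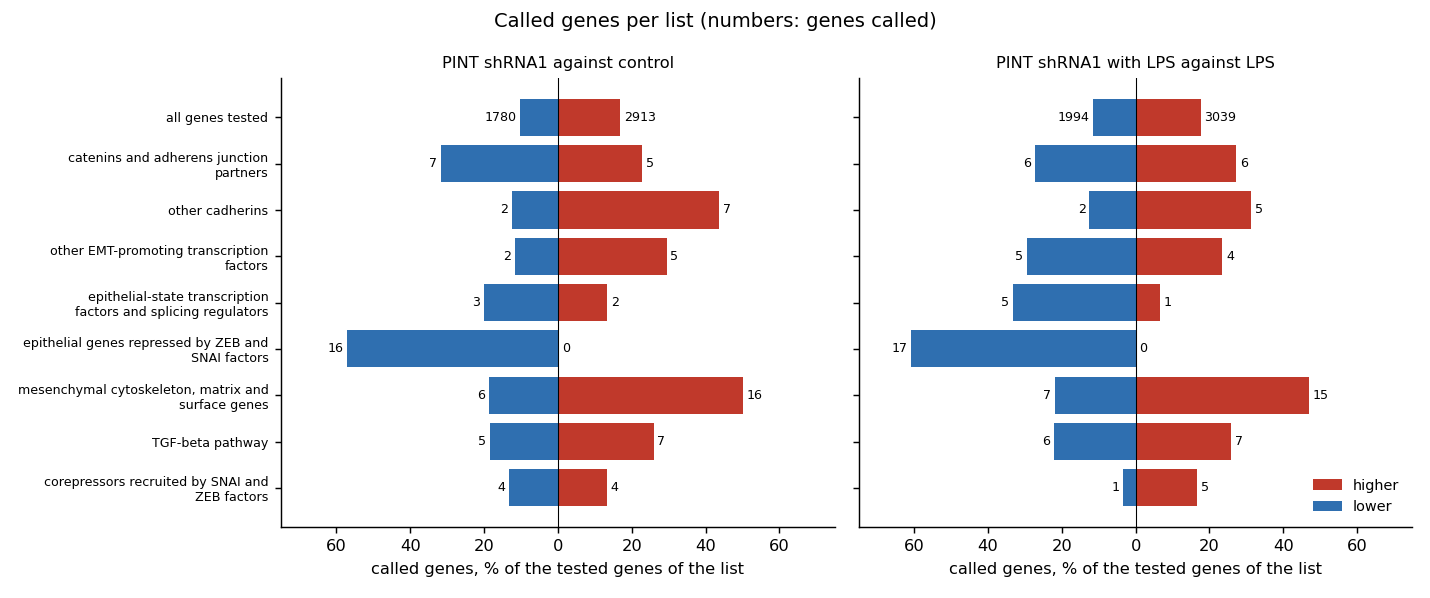
Percentage of the tested genes of each list that were called higher (right) or lower (left) in the 2 hairpin comparisons, with the number of genes beside each bar. The epithelial targets of ZEB and SNAI have 0 genes called higher in either comparison, and 16 and 17 called lower.

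Mesenchymal genes were mixed. Of 32 tested genes of 40 listed, which cover cytoskeleton, matrix and surface proteins, 16 were higher and 6 lower without LPS (50% and 18.8%, against 16.9% and 10.3% of all genes, median 0.28). With LPS, 15 were higher and 7 lower (46.9% and 21.9%, against 17.7% and 11.6% of all genes, median 0.21). The calls shared in direction numbered 20, or 90.9% of each set, again without a matching share over all genes to set beside it. COL6A3, a chain of collagen VI, rose from 0.56, 0.507 and 0.503 FPKM to 2.05, 2.3 and 1.96 FPKM (log2 change 1.35, SE 0.095, limma adjusted p = 4.43e-06). COL6A2, another chain, rose by 0.82 and 1.15. ENG (endoglin), a TGF-beta coreceptor, rose by 1.49 and 1.36 from a level of 0.136 to 0.23 FPKM in control, and it passed the low-value filter only through the hairpin libraries, so it had to differ. Its value depended on the pseudocount, at 2.44 and 2.34 with 0.1 and 1.025 and 0.92 with 1.

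**Figure D4:**
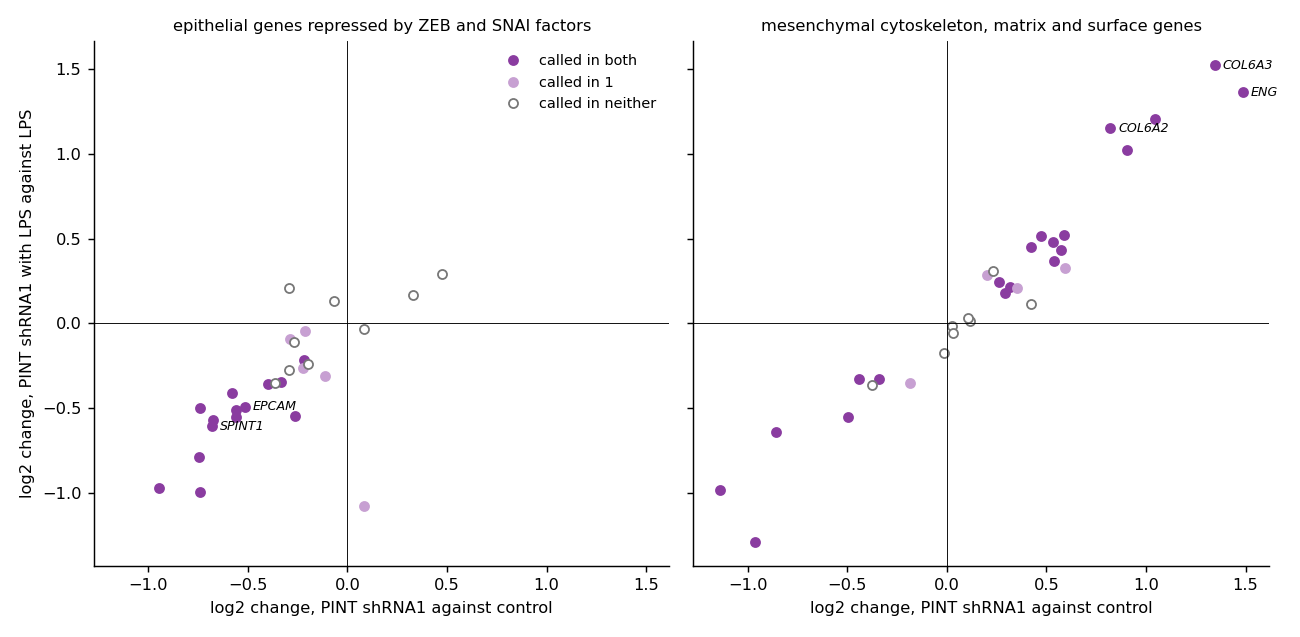
Log2 change in PINT shRNA1 against control (horizontal axis) and in PINT shRNA1 with LPS against LPS (vertical axis) for each tested gene of the epithelial target list (left) and the mesenchymal list (right). Points called in both comparisons lie in the lower left for 14 epithelial targets, and on the right in both the upper right (14 genes) and the lower left (6 genes).

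The adhesion partners of the cadherins were called in both directions. Of 22 tested catenins and junction partners, 5 were higher and 7 lower without LPS and 6 were higher and 6 lower with LPS (medians 0.055 and 0.016). The share called was 54.5% in each comparison, against 27.3% and 29.2% of all genes, and 1 of the 22 passed the low-value filter only through the hairpin libraries. JUP (plakoglobin), which links cadherins to the cytoskeleton in both adherens junctions and desmosomes, fell by 0.45 and 0.35, the phosphatase PTPN1 by 0.28 and 0.25, and ARHGAP21, a GTPase-activating protein, by 0.6 and 0.95. Beta-catenin (CTNNB1), also named after its values were seen, fell by 0.21 and 0.3 from 298.4 FPKM in control. Of 16 tested other cadherins of 50 listed, 7 were higher and 2 lower, and with LPS 5 and 2 (medians 0.22 and 0.26). The shares called higher were 43.8% and 31.2%, against 16.9% and 17.7% of all genes, and here too 1 gene passed the filter only through the hairpin libraries. CDH13 (T-cadherin), which is anchored by a lipid rather than a transmembrane domain, fell from 12.7 ± 0.301 to 6.64 ± 0.109 FPKM (log2 change -0.88, SE 0.055, limma adjusted p = 1.84e-06), whereas CLSTN2 (calsyntenin 2) rose by 0.585 and 0.69 and CDH24 by 0.75 and 0.93.

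Regulators around the ZEB and SNAI factors were also called in both directions. Among 15 tested epithelial-state factors, 2 were higher and 3 lower without LPS and 1 was higher and 5 lower with LPS (medians 0.013 and -0.089). These are 33.3% and 40% of the list, near the 27.3% and 29.2% of all genes called. Without PINT shRNA1 replicate 3, 3 rather than 5 were called in the comparison without LPS. ESRP1, the splicing regulator of the epithelial programme and a known target of ZEB1, fell from 15.9 ± 0.882 to 8.12 ± 0.123 FPKM (SD, n = 3), with no overlap (log2 change -0.92, SE 0.056, limma adjusted p = 1.54e-06), and with LPS by 0.985. OVOL2, a repressor of ZEB1, fell by 0.67 and 0.63. CDX2, the intestinal homeobox factor, rose by 0.38 and 0.62. The former missed the threshold in 2 of 18 alternatives (highest limma adjusted p = 0.0611), among them the one without PINT shRNA1 replicate 3 (0.0524).

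Among 17 tested other factors that promote the transition, 5 were higher and 2 lower without LPS, and 4 were higher and 5 lower with LPS (medians 0.19 and 0.033), or 41.2% and 52.9% called against 27.3% and 29.2% of all genes. LEF1, a partner of beta-catenin, rose by 0.47 and 0.61, while HMGA2, a chromatin protein, fell by 0.56 and 0.61 and SOX9 by 0.42 and 0.26. Of 27 tested TGF-beta pathway genes, 7 were higher and 5 lower, and with LPS 7 and 6 (medians 0.09 and 0.074). That is 44.4% and 48.1% called, against the same 27.3% and 29.2% of all genes. The count of 12 without LPS was 7 without control replicate 2, control replicate 3 or PINT shRNA1 replicate 2, and 5 without PINT shRNA1 replicate 3, so the share called depended on single libraries. The pseudoreceptor BAMBI rose by 0.3 and 0.53 and the coreceptor TGFBR3 fell by 0.55 and 0.57. Of 30 corepressors and modifiers that SNAI and ZEB factors recruit or depend on, 4 were higher and 4 lower, and with LPS 5 and 1 (medians 0.059 and 0.02). The shares called, 26.7% and 20%, lay at or below those of all genes. The total without LPS was 5 without control replicate 1. KDM1A, the histone demethylase recruited by SNAI1, rose by 0.42 and 0.45 and LOXL2 rose by 0.42 and 0.45. LOXL2 is also counted among the mesenchymal genes above. SMAD2 and SMAD3 are counted both among the factors that promote the transition and in the TGF-beta pathway, so these lists are not fully separate. FBXL14 was called lower without LPS (log2 change -0.4) but not with LPS (0.037). AJUBA, named after its values were seen, was called lower in both comparisons (-1.05 and -1.25).

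Markers of other cell types were measured beside these lists, since in bulk RNA fewer cells of a type and less RNA per cell cannot be told apart. Of 9 fibroblast and stromal markers, only COL1A1 was tested, and it was not called. Their summed level was 0.495 to 0.706 FPKM in control and 0.793 to 1.17 with LPS. The hairpin libraries held 1.08 to 1.29 FPKM unstimulated and 0.895 to 1.41 FPKM after LPS. DCN, LUM and COL3A1 were at 0 in all control and LPS libraries. The sum of 7 leukocyte and endothelial markers was 1.43 to 1.78 and 1.58 to 2.05 FPKM in control and LPS. In the 2 hairpin groups it was 2.37 to 2.93 and 2.6 to 3.03 FPKM, led by CD68, which rose by 0.64 and 0.63. VWF of the same list, which was not tested, was lower instead (mean 0.291 FPKM in control and 0.167 FPKM in PINT shRNA1). Of 8 colon epithelial markers 6 were tested, and 5 fell and 1 (CDX2) rose in both comparisons. The share called lower was 83.3% in each, against 10.3% and 11.6% of all genes. EPCAM is also counted among the epithelial targets above, CDX2 among the epithelial-state factors and COL1A1 among the mesenchymal genes. Control libraries summed to 2335.7 to 2660.5 FPKM of these markers against 1434.5 to 1529.7 FPKM under PINT shRNA1. Among LPS-treated libraries the sums were 2356.0 to 2400.7 FPKM against 1541.8 to 1602.7 FPKM with the hairpin label. CDH17 and LGR5 were below the filter, so the labelled colon identity rests on EPCAM, keratins, VIL1 and CDX2. Libraries labelled with the hairpin also listed more genes above 0 (30725 to 31961, against 27078 to 28430) and PINT shRNA1 with LPS was deeper than the rest (1.3 to 1.509 relative to control replicate 1, against 0.809 to 1.048). The part of these differences in the results was not tested.

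Genes whose profile over the 12 libraries lay nearest to a called member were found among 13628 genes by the root mean square difference of centred log2 values. Nearest to CDH3 were TGFB1I1 (0.054), CASP6 (0.069) and FAM13B (0.076), where the median over all genes was 0.292. VIM was followed most closely by PHF8 (0.038), PPP1R15B (0.049) and IKBKB (0.057), with a median of 0.276. For ZEB1 they were KRT41P (0.261), IER3IP1 (0.278) and CST1 (0.289), with a median of 0.788. These differences include the variation within groups, which was larger for ZEB1 (SD 0.374 in log2) than for VIM (0.081) or CDH3 (0.098). Closeness is therefore not compared between these members.

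**Figure D5:**
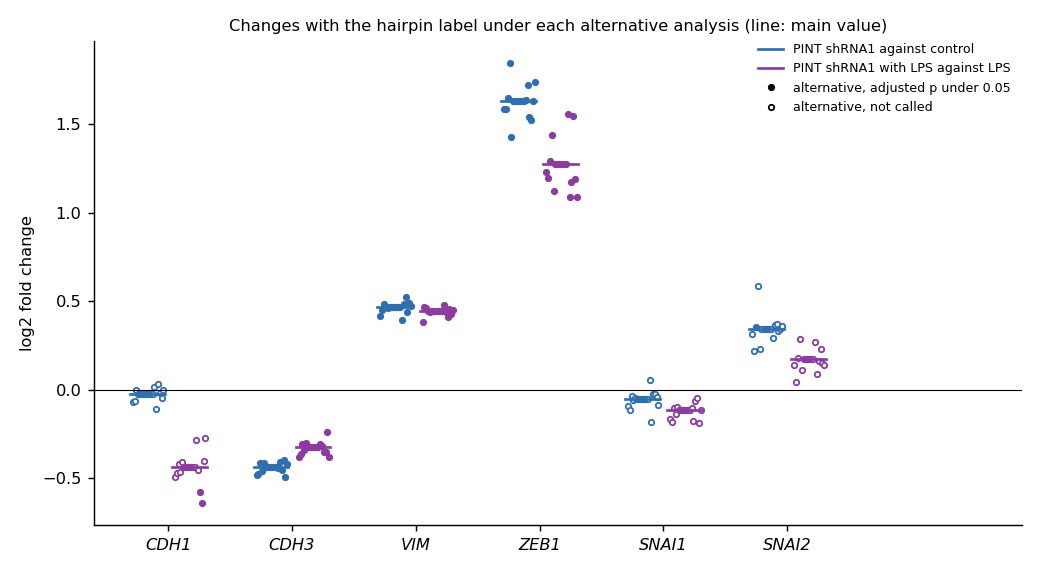
Log2 change (vertical axis) of each tested gene in the 2 hairpin comparisons under each alternative analysis (points, filled where the adjusted p is under 0.05), with lines at the main values. ZEB1, VIM and CDH3 are filled and on 1 side of 0 throughout, while CDH1 is filled under 2 alternatives with LPS.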

How the data were processed

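The authors deposited FPKM per Ensembl gene (fragments scaled by transcript length and by mapped library size), and these deposited FPKM values were used without change. Per the submitters' processing notes, the tools were StringTie 1.3.4d, HISAT2 2.1.0 and fastp, with build GRCh37 (hg19); their roles are not stated. The labels list 15 samples, with a pair for each RNA number of PINT shRNA1, but the table has 1 column per RNA number, and whether it holds 1 sample or both is not recorded. Another 6 columns were not used. FPKM summed to 409248 to 421487 per library; total counts are unknown, so no counting interval is given and precision is the SE of the fit.

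With R 4.3.3 and limma 3.58.1, log2(FPKM + 0.5) entered 1 group-means fit of 12 libraries with an intensity trend, two-sided, with Benjamini-Hochberg adjustment over the 17214 genes that reached 0.5 FPKM in 3 or more libraries. Called means an adjusted p under 0.05. The pipeline was tested on simulated data for PINT shRNA1 against control. It recovered 62.7% of log2 changes of 0.5 and 95.5% of changes of 1, with 15 false calls among 17214 genes. Changes were placed only in genes at higher levels than SNAI2, so recovery at its level was not tested. A missed call of a change near or under 0.5 is therefore not read as no change. Named genes are the members, their antisense genes, LINC-PINT, up to 3 called genes with the smallest p per list and comparison, and the 3 nearest profiles of each called member; CRB3, CTNNB1 and further marker genes were named after their values were seen. Not every gene the rule selects is reported here. The members and lists were chosen with earlier results of these data known. GENCODE 29 and RefSeq promoters are of GRCh38, so no coordinate was joined to the FPKM table. Replicate numbers did not pair libraries and no block was used. Alternatives covered scaling, pseudocount, filter, trend, moderation, replicate block, groups fitted, a log2 threshold and leaving out each library.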

Additional observations from a re-analysis of the deposited data

Results flagged for a closer look

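SMAD3, the signal transducer of TGF-beta receptors and a partner of ZEB and SNAI factors, responded differently to LPS with and without the hairpin label. It measured 13.8, 12.6 and 13.7 FPKM in control and 26.1, 22.8 and 25.4 with LPS, against 14.9, 15.8 and 15.2 in PINT shRNA1 and 18.3, 17.9 and 17.3 in PINT shRNA1 with LPS. The difference of the LPS responses was -0.65 on the log2 scale (SE 0.086, limma adjusted p = 0.0136), a test of the difference itself. It missed the threshold without LPS replicate 3 (-0.63, adjusted p = 0.0528), PINT shRNA1 replicate 2 (-0.625, 0.0507) or PINT shRNA1 with LPS replicate 3 (-0.63, 0.0562), and with a replicate block (0.0513).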

How the results depend on the processing

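ZEB1, VIM and CDH3 kept their direction and their call in all 18 alternatives of each hairpin comparison. Without LPS the log2 changes ranged from 1.43 to 1.84 for ZEB1, 0.39 to 0.52 for VIM and -0.49 to -0.4 for CDH3, and with LPS from 1.09 to 1.56, 0.385 to 0.48 and -0.38 to -0.24. With a log2 threshold of 1, members called went from 3 to 1 in each hairpin comparison, by construction. Leaving out single libraries gave 3 to 3 called members without LPS and 3 to 4 with LPS, and 0 to 0 in the other 3 comparisons. In PINT shRNA1 against control, 4 were called after rescaling to a common FPKM total and with no intensity trend, where SNAI2 was added, and the remaining alternatives gave 3, 3, 0, 0 and 0 over the 5 comparisons.

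Genes called for LPS against control numbered 475, and 264 with library weights per group (an alternative chosen after seeing the data), 127 with only the groups compared in the fit, 41 with a log2 threshold of 1, and 293 to 381 without 1 library (293 without LPS replicate 3). The hairpin comparisons went from 4693 to 240 and from 5033 to 288 at that threshold, and to 3558 to 3999 and 3775 to 4415 without 1 library. For PINT shRNA1 with LPS against PINT shRNA1 there were 32, and 65 with median scaling, 57 with quantile normalization, 18 with no intensity trend, 65 with library weights, 5 with the log2 threshold and 19 to 40 without 1 library (19 without PINT shRNA1 replicate 1). The difference of LPS responses gave 22, 8 with the threshold and 17 to 26 without 1 library. Apart from the threshold and the left-out libraries, the cause was not tested.

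Same-numbered libraries did not deviate together (correlations -0.048 to 0.057 over 18 pairs, against -0.058 to 0.046 over 36 others). With a replicate block members called stayed at 3 and 3, and all genes called became 311 for LPS against control, 17 for LPS under the hairpin label and 14 for the difference of LPS responses.

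Changes of sign among the members occurred only in values that were not called. Leaving out 1 library at a time, CDH1 in PINT shRNA1 against control ranged from -0.11 to 0.032, SNAI1 from -0.183 to 0.055 and its difference of LPS responses from -0.17 to 0.068. For the LPS response under the hairpin label, SNAI2 ranged from -0.042 to 0.047, with 0.017 after median scaling and 0.041 after quantile normalization, and ZEB1 from -0.323 to 0.132. For LPS against control, VIM ranged from -0.009 to 0.123 and ZEB1 from -0.066 (without LPS replicate 1) to 0.406. The difference of LPS responses of VIM ranged from -0.08 to 0.052, with 0.018 after quantile normalization.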

Other observations

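Some genes of the surrounding lists were called for LPS in cells without the hairpin label. ETS1, a transcription factor linked to invasion, rose from 35.6, 41.3 and 29.5 FPKM to 60.6, 79.1 and 77.6 FPKM (log2 change 1.023, SE 0.141, limma adjusted p = 0.00284). FAT1, a giant member of the cadherin superfamily, rose from 41.3 to 66.9 FPKM on average (log2 change 0.69, SE 0.077, limma adjusted p = 0.000734).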
